A study of Homo sapiens with 6 samples.

Results

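The TAM family consists of the receptor tyrosine kinases TYRO3, AXL and MERTK, and its ligands are the secreted proteins GAS6 and protein S (PROS1). Their 5 genes were taken by symbol from the 60669 gene rows of the deposited table, and each symbol matched 1 row. RNA was sequenced from LX-2 cells, an established human line derived from activated hepatic stellate cells and labelled wild type. The cells were collected 48 h after lipid transfection with an siRNA against the matrix protease gene ADAMTS12 (siADAMTS12) or with a commercial negative-control siRNA (siCTL), and each group had 3 libraries numbered 1 to 3. A single ADAMTS12 sequence was used, in a single cell line. Separate cultures for the libraries of a group are not mentioned in the labels, and the spread behind every p-value may therefore be technical.

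TAM ligands bridge a cell that carries a TAM receptor to membranes that expose phosphatidylserine, such as those of dying cells. The amino-terminal domain of GAS6 and of PROS1 binds phosphatidylserine once vitamin K-dependent carboxylation has modified its glutamates, and the carboxy-terminal domains bind the receptor. GAS6 binds all TAM receptors, whereas PROS1 acts on TYRO3 and MERTK. The receptors signal through PI3-kinase and AKT, drive the engulfment of dying cells and dampen inflammatory signalling. In liver, MERTK is best known in macrophages, and AXL and GAS6 are known for their part in the activation of hepatic stellate cells.

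Values are the deposited normalised counts, and their totals per library lay between 30678468 and 31415206 with siADAMTS12 and between 33576945 and 34072515 with siCTL. ADAMTS12 itself fell to 28.5% of its siCTL level (log2 fold change -1.81 ± 0.07 SE, limma adjusted p = 4.81e-08). Of 12 stellate and mesenchymal markers, 9 had a mean of at least 10, whereas the retinoid enzyme gene LRAT was at 0 in all 6 libraries, and DES and CYGB did not exceed 5. The 12 summed to between 295471 and 314601 with siADAMTS12 and between 384933 and 423392 with siCTL, without overlap, and the part of this lower sum in the values of AXL and GAS6 was not tested. Macrophage markers were low: the 10 summed to between 133 and 161 with siADAMTS12 and between 133 and 173 with siCTL. C1QA, C1QB and VSIG4 were at 0, whereas CD14, ADGRE1 and CSF1R had a mean of at least 10. The 8 hepatocyte markers summed to between 23 and 29 with siADAMTS12 and between 19 and 20 with siCTL. The 4 cholangiocyte markers summed to between 1733 and 2071 with siADAMTS12 and between 1874 and 2232 with siCTL, and SOX9 and KRT7 had a mean of at least 10. The 6 endothelial markers summed to between 65 and 79 with siADAMTS12 and between 139 and 157 with siCTL, with STAB2 and LYVE1 at 0 and PECAM1 at 7 or less. KDR accounted for most of that sum, and its part in any result below was not tested. In such bulk RNA, fewer cells of a type and less RNA per cell cannot be told apart.

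The siRNA is shown because its strands can act on transcripts other than their target through short matches in 3' UTRs, as microRNAs do. Capitals mark the seed, bases 2 to 8 from the 5' end of each strand. The guide is the reverse complement of the sense strand that the labels give.
siADAMTS12 guide strand: uUUCCCUCcaaacuuuggc
siADAMTS12 sense strand: gCCAAAGUuuggagggaaa
No match to guide bases 2 to 7 (AGGGAA) was found in the 3' UTR of the principal GENCODE transcript of AXL, TYRO3, MERTK, GAS6 or PROS1. The UTRs searched were 1862, 5310, 697, 306 and 1212 bases long, in that order. Among 12610 genes with a searched 3' UTR, 41.3% held this 6-mer, and the 7-mer match to bases 2 to 8 (GAGGGAA) was in 30.7% of the genes that fell, 10.9% of those that rose and 12.5% of those not called. Outside the 3' UTR the 6-mer occurred 2 times in the AXL transcript and once each in those of TYRO3 and MERTK. For the sense strand, the 7-mer match (ACTTTGG) was in 21.6% of all searched 3' UTRs. It was in 26.4% of the genes that fell, 22.4% of those that rose and 20.1% of those not called. The 6-mer match to bases 2 to 7 (CTTTGG) was in 53.5%, 48.6% and 42.1% of these groups. Among the members, this 6-mer occurred 2 times in the 3' UTR of AXL, 4 times in that of TYRO3 and 1 time in that of PROS1. The part of these matches in the values was not tested. The 7-mer was found in the 3' UTR of TYRO3 alone among the members, where it occurred 2 times. The first of these sites is shown with the match in capitals.
TYRO3 3' UTR, chr15:41580256-41580279, plus strand, GRCh38: atcccagcACTTTGGgagacctgg

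**Figure D1:**
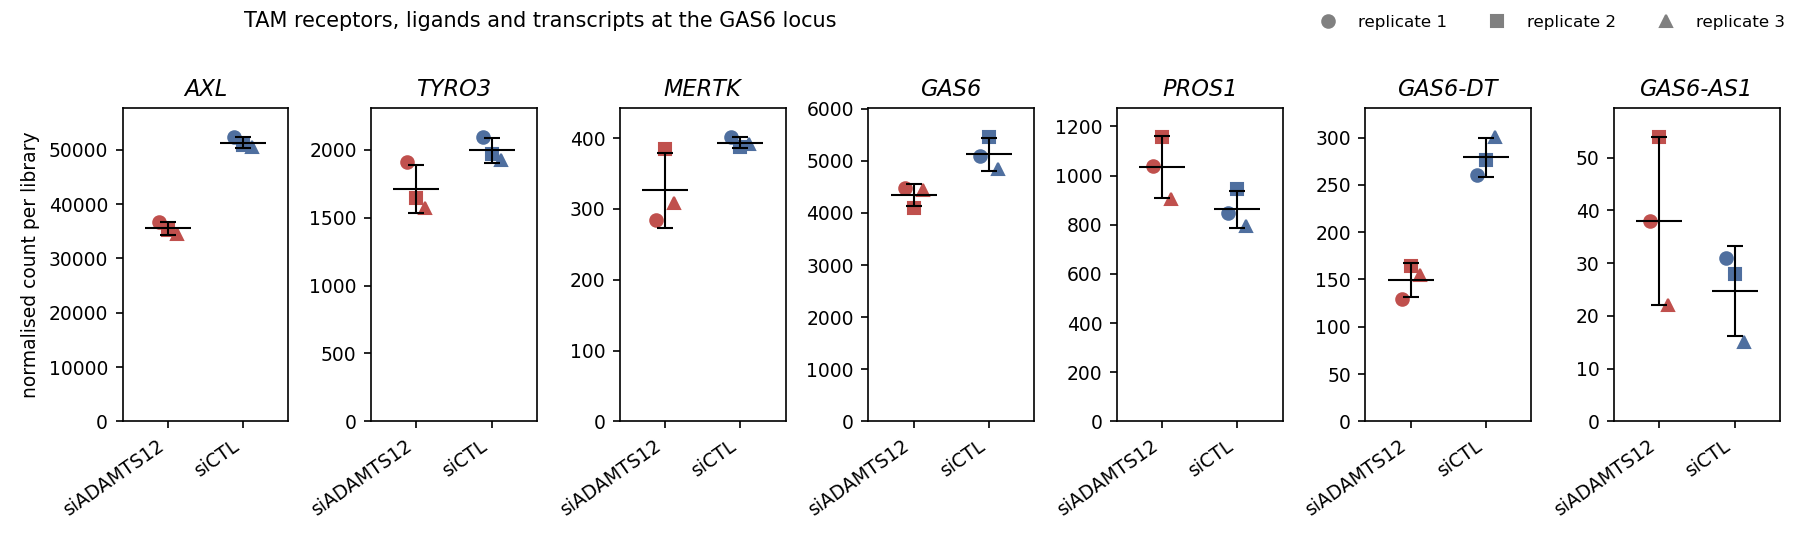
Normalised count per library (vertical axes, each starting at 0) for the 5 TAM genes and 2 non-coding transcripts of the GAS6 locus, with siADAMTS12 on the left and siCTL on the right of each panel. Symbols are replicates, and bars are the mean and SD over 3 libraries. The AXL groups lie far apart, between 34503 and 36796 against 50610 and 52430, whereas the PROS1 groups overlap.

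AXL and GAS6, the receptor and the ligand with the highest levels of the family, fell with siADAMTS12. AXL fell to 69.2% and GAS6 to 84.6% of the siCTL level. TYRO3 and MERTK also lay lower in every siADAMTS12 library than in any siCTL library, but missed the threshold of 0.05 on the adjusted p, and PROS1 stood higher on average with overlapping groups. So 2 of 5 members fell and 0 rose, where 27.0% of the 15637 genes tested were called, 15.5% as lower and 11.5% as higher. The siADAMTS12 and siCTL values did not overlap in 4 of 5 members, all lower with siADAMTS12, where 21.7% of all genes tested did so in that direction and 40.9% in either. The median log2 fold change was -0.24 over the members and 0.005 over all genes tested.

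AXL (ENSG00000167601, chromosome 19, 41219203 to 41261766, plus strand, GRCh38) encodes the TAM receptor that GAS6 binds most tightly. It had 36796, 35260 and 34503 normalised counts in siADAMTS12 replicates 1, 2 and 3, against 52430, 50857 and 50610 in siCTL replicates 1, 2 and 3. The highest siADAMTS12 library stood well below the lowest siCTL library. The mean was 35520 ± 1168 with siADAMTS12 and 51299 ± 987 with siCTL (SD, n = 3 each). The log2 fold change on the log2(value + 1) scale was -0.53 ± 0.07 (SE), with a 95% interval from -0.68 to -0.39 and a limma adjusted p of 0.000134. The exact 2-sided permutation p was 0.1, the smallest that 3 against 3 libraries allow. AXL passed under all 14 alternative settings, with log2 fold changes from -0.56 to -0.31, the smallest change being after quantile normalization (adjusted p = 0.00792).

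The stretch upstream of the annotated AXL start is shown because its GC boxes are of the kind bound by Sp1 and Sp3, factors known to drive AXL transcription. It comes from RefSeq promoters on GRCh38.p14, is 230 bases long and ends at the base before the GENCODE start. Capitals mark GGGCGG, searched on both strands, which was found 2 times here with no overlap.
AXL upstream, chr19:41218973-41219202, plus strand: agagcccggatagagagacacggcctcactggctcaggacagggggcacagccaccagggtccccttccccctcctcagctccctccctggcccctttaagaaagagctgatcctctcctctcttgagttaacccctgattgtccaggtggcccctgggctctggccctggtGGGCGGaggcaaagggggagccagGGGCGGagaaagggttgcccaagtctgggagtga
Among 35116 promoters, 42.6% held this motif in the 250 bases before the start. Every other member held it as well: MERTK 4 times, GAS6 3 times and PROS1 2 times. TYRO3 held it 3 times in a first promoter and 0 times in a second. The part of GC boxes in the values was not tested. The 250 bases before this first RefSeq start of AXL held no TGANTCA, the AP-1 motif present in 6.57% of promoters, and no GGAATG, the TEAD motif present in 11.9%. A second RefSeq promoter of AXL, chr19:41226505-41226804, held 1 GGAATG, no TGANTCA and no GC box in its 250 bases. These are matches of letters only, and binding was not measured.

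TYRO3 (ENSG00000092445, chromosome 15, 41557675 to 41583586, plus strand) is the TAM receptor best known from the nervous system. It had 1910, 1648 and 1570 normalised counts in siADAMTS12 replicates 1, 2 and 3, against 2096, 1968 and 1922 in siCTL replicates 1, 2 and 3. The gap between the groups was narrow, since siADAMTS12 replicate 1 came within 12 counts of siCTL replicate 3. The log2 fold change was -0.23 ± 0.08 (SE; 95% interval -0.40 to -0.05; adjusted p = 0.0545). TYRO3 passed with the replicate number as a block (adjusted p = 0.0113) and without siADAMTS12 replicate 1 (log2 fold change -0.31, adjusted p = 0.0124). After scaling to equal totals it was at -0.10 (adjusted p = 0.356). Its processed pseudogene TYRO3P had between 0 and 6 counts in every library. Reads that match both could be lost or split by the authors' counting.

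MERTK (ENSG00000153208, chromosome 2, 111898479 to 112029561, plus strand), the main TAM receptor for engulfment in macrophages, was the lowest of the 5. It had 284, 385 and 309 normalised counts in siADAMTS12 replicates 1, 2 and 3, against 402, 388 and 391 in siCTL replicates 1, 2 and 3. The siCTL libraries were close together, while siADAMTS12 replicate 2 came within 3 counts of them. The log2 fold change was -0.28 ± 0.12 (SE; 95% interval -0.54 to -0.03; adjusted p = 0.0924). Without siADAMTS12 replicate 2 it was -0.41 and passed (adjusted p = 0.0126). After scaling to equal totals it was -0.16 (adjusted p = 0.298). Macrophage markers were as low in these libraries as given above, and their part in the MERTK values was not tested.

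GAS6 (ENSG00000183087, chromosome 13, 113820549 to 113864067, minus strand) had 4473, 4095 and 4445 normalised counts in siADAMTS12 replicates 1, 2 and 3, against 5094, 5463 and 4833 in siCTL replicates 1, 2 and 3. All siADAMTS12 values were below all siCTL values. The mean was 4338 ± 211 with siADAMTS12 and 5130 ± 317 with siCTL (SD, n = 3 each), a log2 fold change of -0.24 ± 0.07 (SE; 95% interval -0.39 to -0.10; limma adjusted p = 0.0185). This call was lost without siADAMTS12 replicate 2 (-0.20, adjusted p = 0.0558) and without siCTL replicate 2 (-0.20, adjusted p = 0.0724). It was also lost after quantile normalization (-0.14, adjusted p = 0.157), after scaling to equal totals (-0.12, adjusted p = 0.216) and without the intensity trend (adjusted p = 0.0718).

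A long non-coding RNA that starts next to GAS6 and runs the other way, GAS6-DT (ENSG00000272695, chromosome 13, 113864168 to 113866833, plus strand), fell more. It had 129, 164 and 155 normalised counts in siADAMTS12 replicates 1, 2 and 3, against 260, 276 and 301 in siCTL replicates 1, 2 and 3. The groups were far apart, and GAS6-DT fell to 53.5% of its siCTL level (log2 fold change -0.90 ± 0.12 SE, adjusted p = 0.000286), with a call under all 14 alternatives. The log2 ratio of GAS6-DT to GAS6 was -4.86 ± 0.24 with siADAMTS12 and -4.20 ± 0.17 with siCTL (SD, n = 3 each), and the groups did not overlap. The 100 bases between the annotated starts, which lie upstream of both transcripts, are shown on the GAS6 strand with GC boxes (CCGCCC, the reverse complement of GGGCGG) in capitals.
GAS6 to GAS6-DT, chr13:113864068-113864167, minus strand, GRCh38.p14: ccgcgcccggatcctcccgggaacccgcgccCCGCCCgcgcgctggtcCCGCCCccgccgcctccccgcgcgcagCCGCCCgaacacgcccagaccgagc
The stretch holds 3 GC boxes, a motif that 42.6% of 35116 promoters held in the 250 bases before the start. GAS6-AS1, an antisense RNA that overlaps GAS6 between 113820549 and 113845744, had 38, 54 and 22 normalised counts with siADAMTS12 and 31, 28 and 15 with siCTL (adjusted p = 0.266). The strand setting of the counting is not given in the sources used here, so reads of GAS6 and GAS6-AS1 may not have been told apart. GAS6-AS1 had less than 2% of the GAS6 counts.

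PROS1 (ENSG00000184500, chromosome 3, 93873033 to 93980003, minus strand), known as an anticoagulant cofactor in plasma besides its role as a TAM ligand, was the only member with a positive fold change. It had 1038, 1158 and 906 normalised counts in siADAMTS12 replicates 1, 2 and 3, against 848, 944 and 794 in siCTL replicates 1, 2 and 3. The groups overlapped, because siADAMTS12 replicate 3 lay below siCTL replicate 2. In each numbered pair the siADAMTS12 library was the higher. The log2 fold change was 0.26 ± 0.10 (SE; 95% interval 0.04 to 0.48; limma adjusted p = 0.0744; exact permutation p = 0.2). PROS1 passed with the replicate block (adjusted p = 0.00946), after scaling to equal totals (0.38, adjusted p = 0.0121) and without siADAMTS12 replicate 3 (0.35, adjusted p = 0.0308). Without siADAMTS12 replicate 2 it was at 0.17 (adjusted p = 0.222). Its pseudogene PROS2P was at 0 in every library, and reads shared with it could have been dropped.

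**Figure D2:**
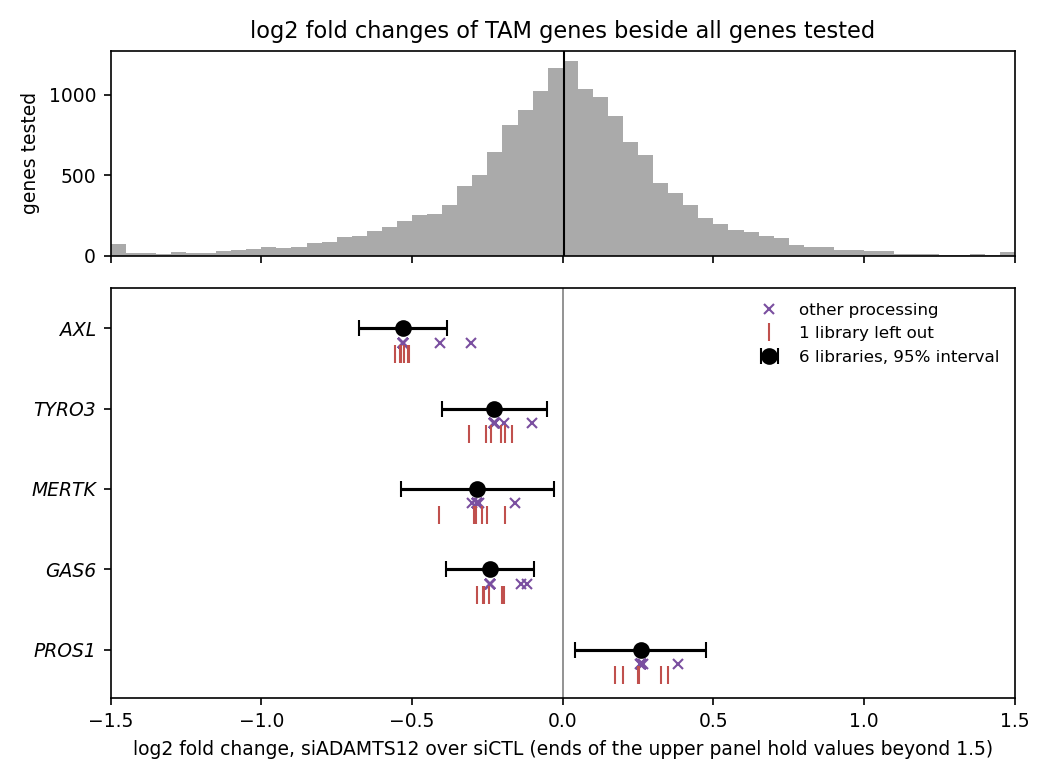
Log2 fold change of siADAMTS12 over siCTL (horizontal axis) for all 15637 genes tested (upper panel, number of genes, with a line at the median) and for each TAM gene (lower panel). Black points and bars are the fit to 6 libraries with its 95% interval, crosses other processing and red ticks fits that leave out 1 library. AXL stays between -0.56 and -0.31, and no member changes sign.

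Scaling every library to the same total moved the median log2 fold change of all genes to 0.13. Relative to that median, AXL was at -0.54, MERTK at -0.29, GAS6 at -0.25, TYRO3 at -0.23 and PROS1 at 0.25. These are nearly the deposited changes again, because the scaling shifts all genes by about the same amount.

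Whether members changed unequally was asked with log2 ratios inside each library, in which gene length and library scaling cancel between the groups. All 10 pairs were compared, and 6 did not overlap between the groups. These were every pair with PROS1, and AXL to TYRO3 and AXL to GAS6. The pairs share genes, so they are not separate results. The share among pairs of other genes was not measured, and among single genes tested 40.9% did not overlap. The 6 pairs had an exact 2-sided permutation p of 0.1, the smallest possible here. After Benjamini-Hochberg adjustment over the 10 pairs it was 0.167, so none could pass. The largest difference was that of AXL to PROS1, 5.11 ± 0.16 with siADAMTS12 and 5.90 ± 0.13 with siCTL (SD, n = 3 each), a shift of -0.79. The ligand ratio of GAS6 to PROS1 was 2.07 ± 0.24 with siADAMTS12 and 2.57 ± 0.04 with siCTL, a shift of -0.50. AXL also stood lower relative to its ligand GAS6, by -0.29, and relative to TYRO3, by -0.30. The ratio of AXL to MERTK differed by -0.25, but its groups overlapped (exact permutation p = 0.2, adjusted p = 0.286), with siADAMTS12 replicate 1 level with the siCTL libraries. The ratios among TYRO3, MERTK and GAS6 differed by 0.06 or less and their groups overlapped.

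**Figure D3:**
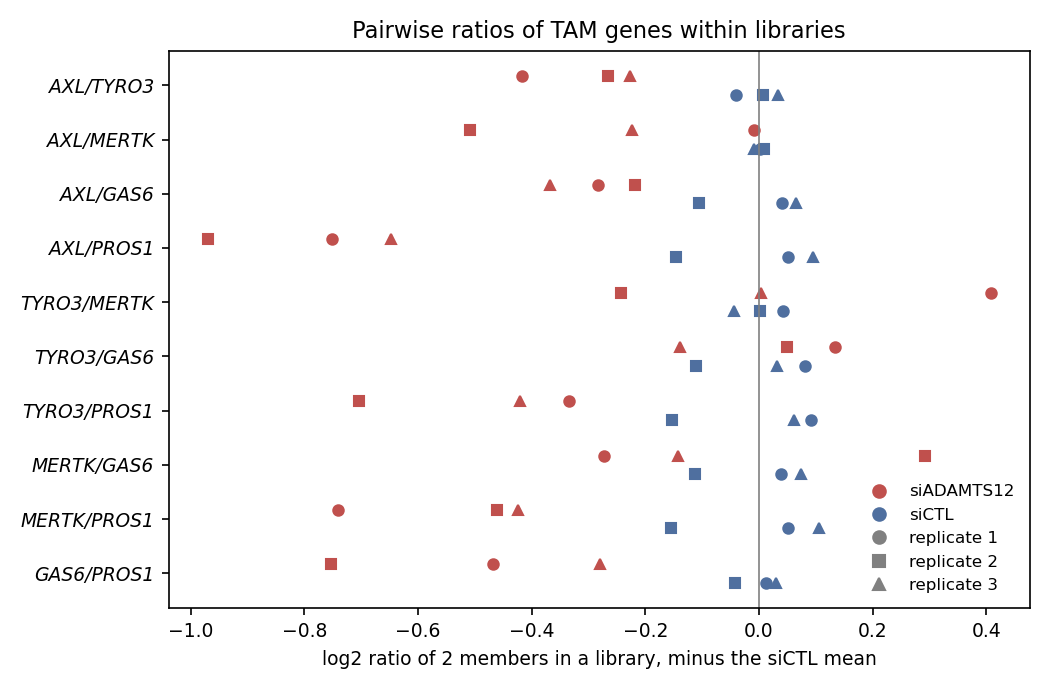
Log2 ratio of 2 TAM genes in each library (horizontal axis, with the siCTL mean of that pair set to 0) for the 10 pairs. Red symbols are siADAMTS12 and blue symbols siCTL libraries, with shapes for replicates. All siADAMTS12 ratios to PROS1 lie to the left of the siCTL ratios, by between -0.49 and -0.79 on average.

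Levels were set side by side as normalised counts per kb of merged exons. AXL had 6892 ± 227 per kb with siADAMTS12 and 9953 ± 192 with siCTL, and GAS6 had 722 ± 35.1 with siADAMTS12 and 854 ± 52.7 with siCTL (SD, n = 3 each). TYRO3 had 156 ± 16.3 per kb with siADAMTS12 and 182 ± 8.24 with siCTL. PROS1 had 190 ± 23.2 per kb with siADAMTS12 and lay between 146 and 173 per kb with siCTL, and MERTK had 69.4 ± 11.2 with siADAMTS12 and 83.8 ± 1.57 with siCTL. AXL, GAS6 and MERTK held the first, second and last place in both groups, beyond their spread. TYRO3 and PROS1 were neighbours in the order, and their values overlapped with siADAMTS12 but not with siCTL. With the length of the principal transcript, a choice made after the data were seen, their siCTL levels were 243 ± 11.0 and 241 ± 21.2 per kb, which do not differ beyond their spread. AXL made up 96.8 ± 0.129% of the summed per-kb level of the 3 receptors with siADAMTS12 and 97.4 ± 0.0431% with siCTL. The per-kb level of GAS6 was 3.85 ± 0.623 times that of PROS1 with siADAMTS12 and 5.40 ± 0.141 times with siCTL. By principal transcript length it was 6.12 ± 0.988 times with siADAMTS12 and 8.58 ± 0.223 times with siCTL (SD, n = 3 each).

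AXL was also the highest of the 57 receptor tyrosine kinase genes listed. By level per kb it ranked 93 with siADAMTS12 and 67 with siCTL among the 58496 gene rows with a GENCODE model. It held 47.4 ± 0.555% of the summed per-kb level of these 57 genes with siADAMTS12 and 53.5 ± 0.609% with siCTL (SD, n = 3 each), and the groups did not overlap. The ephrin receptor EPHA2 came next, with 1488 per kb with siADAMTS12 and 1646 with siCTL. Of the 54 kinases outside the TAM family, 39 had a mean of at least 10, of which 14 fell and 2 rose, beside 15.5% lower and 11.5% higher among all genes tested. Their median log2 fold change was -0.26. The 4 with the smallest adjusted p were the Wnt receptor ROR1 (-1.12), the PDGF receptor PDGFRB (-0.80) and the VEGF receptors FLT1 (-1.17) and KDR (-1.09), all lower with siADAMTS12 and called in all 14 alternatives. ROR1 carries the guide 7-mer. Their adjusted p-values ran from 1.17e-05 to 0.000280. The EGF receptor EGFR and the FGF receptor FGFR1, both abundant here, were at 0.07 (95% interval -0.06 to 0.20) and 0.01 (-0.12 to 0.14).

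**Figure D4:**
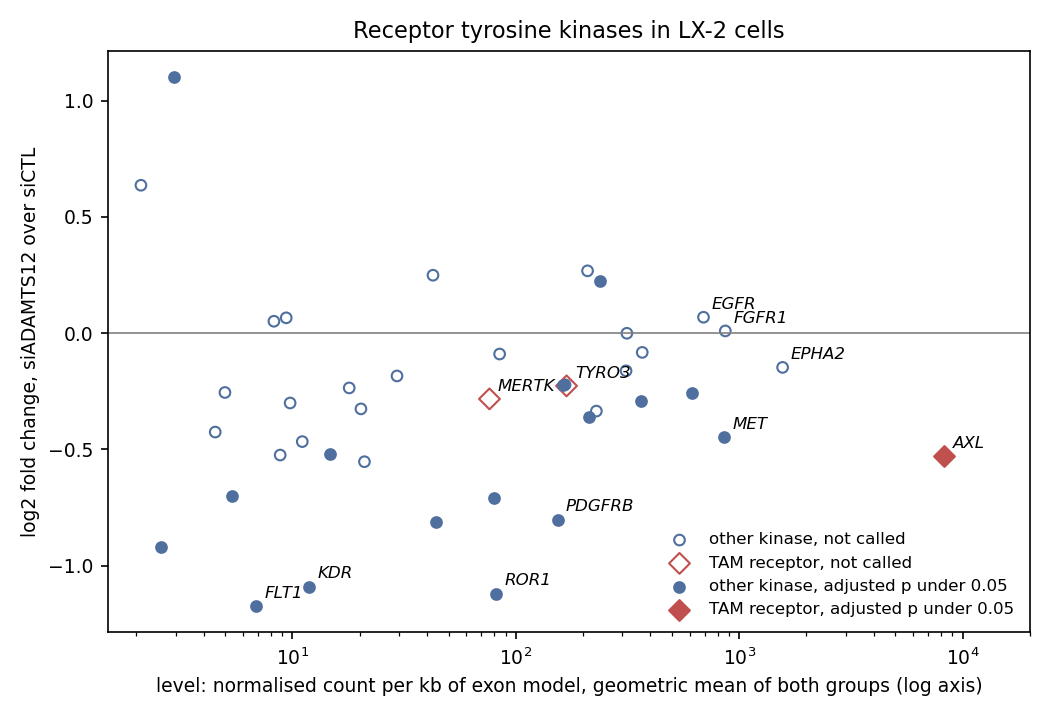
Log2 fold change of siADAMTS12 over siCTL (vertical axis) against level per kb (horizontal log axis) for receptor tyrosine kinase genes with a mean of at least 10. Red diamonds are TAM receptors, blue circles the others, and filled symbols have an adjusted p under 0.05. AXL stands apart at the right, several times above EPHA2, with a fold change of -0.53.

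Genes around the TAM system were followed in lists by role, 168 distinct genes of which 132 had a mean of at least 10. Of these, 37 fell and 11 rose (28.0% and 8.33%), beside 15.5% and 11.5% of all genes tested. With the replicate block 45 fell and 18 rose (34.1% and 13.6%), beside 19.6% and 15.5% of all genes. With scaling to equal totals 26 fell and 26 rose (19.7% each), beside 9.89% and 24.7% of all genes. The guide 7-mer GAGGGAA occurred in 3' UTRs of 11 among the 37 genes that fell, and in 0 of the 11 that rose. Among all searched genes it was in 30.7% of those that fell and 10.9% of those that rose.

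For the ligands, neither the carboxylase nor the main reductase of the vitamin K cycle passed the test. The gamma-glutamyl carboxylase GGCX, which modifies both TAM ligands, was at -0.14 (95% interval -0.29 to 0.02; adjusted p = 0.171), and the vitamin K reductase VKORC1 was at -0.14 (-0.45 to 0.16; adjusted p = 0.487). Of 12 other genes for Gla-domain proteins, 4 had a mean of at least 10. Of these, 1 fell and 0 rose (25% and 0%), beside 15.5% lower and 11.5% higher among all genes tested. The gene that fell was PRRG1, a membrane Gla protein (-1.03 ± 0.11 SE, adjusted p = 5.70e-05). PRRG1 carries the guide 7-mer.

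For the receptors, proteases that shed AXL and MERTK from the surface fell. ADAM17 was at -0.64 ± 0.06 (SE, adjusted p = 1.47e-05) and ADAM10 at -0.41 ± 0.06 (adjusted p = 0.000411), both called in all 14 alternatives, whereas RHBDF2, a partner that carries ADAM17 to the surface, rose (1.02 ± 0.08, adjusted p = 5.25e-06). In this list of 10, which includes gamma-secretase, 3 fell and 1 rose. These are 30% and 10% of the list, beside 15.5% lower and 11.5% higher among all genes tested. The third fall, of the gamma-secretase subunit NCSTN (-0.20, adjusted p = 0.0359), was lost without siADAMTS12 replicate 1 or 3 or siCTL replicate 2 or 3, with adjusted p-values up to 0.138 when 1 library was left out. Its call was also lost with no filter on low values, after either other scaling and without the intensity trend (up to 0.351).

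Genes for phosphatidylserine exposure, which makes the surface that TAM ligands bind, moved both ways. TMEM30A (-0.35, adjusted p = 0.0107), a subunit of the flippases that keep phosphatidylserine inside, and the calcium-dependent scramblase ANO6 (-0.64, adjusted p = 1.08e-05) fell. XKR8, the scramblase that acts in apoptosis, rose (0.71 ± 0.07, adjusted p = 2.59e-05). TMEM30A carries the guide 7-mer and lost its call after quantile normalization, after scaling to equal totals and without the intensity trend (adjusted p up to 0.137).

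Beside 15.5% lower and 11.5% higher among all genes tested, 4 of 10 other bridging molecules and engulfment receptors tested fell (40%) and 0 rose. They were the matrix bridge THBS1 (-0.95), the integrin subunit ITGB3 (-0.79), the lectin LGALS3 (-0.59 ± 0.08 SE, adjusted p = 0.000324), which has been reported as a further MERTK ligand, and ITGB5 (-0.28, adjusted p = 0.0346). The ITGB5 call was lost without siADAMTS12 replicate 2 or 3 or siCTL replicate 1 or 2 (adjusted p up to 0.141), and in the same 4 other settings as that of NCSTN (up to 0.205). MFGE8, which bridges phosphatidylserine to integrins, had a mean of 8824 over all libraries and was at 0.04 (95% interval -0.14 to 0.21). In engulfment signalling, of 10 tested the adaptor GULP1 rose (0.37, adjusted p = 0.00667) and the lipid exporter ABCA1 fell (-0.26, adjusted p = 0.0256). Each is 10% of that list, beside 11.5% higher and 15.5% lower among all genes tested. The ABCA1 call was lost without siADAMTS12 replicate 1 or 3 or siCTL replicate 1 or 2 (adjusted p up to 0.110), after either other scaling and without the intensity trend (up to 0.178).

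Downstream of the receptors, 7 of 21 signalling genes fell and 1 rose, with a median log2 fold change of -0.11. These are 33.3% and 4.76% of the list, beside 15.5% lower and 11.5% higher among all genes tested. The GTPase NRAS (-0.94 ± 0.06 SE, adjusted p = 5.45e-07), the adaptor NCK2 (-1.20 ± 0.08, adjusted p = 8.86e-07), the kinase AKT1 (-0.55, adjusted p = 3.39e-05) and the adaptor SHC1 (-0.42, adjusted p = 0.000227) had the smallest adjusted p-values, and all were called in the 14 alternatives. GRB2, the adaptor that docks on activated AXL, was at 0.02 (95% interval -0.10 to 0.15). Of 8 negative regulators, 1 fell and 2 rose (12.5% and 25%), beside 15.5% and 11.5% of all genes tested. SOCS3, which TAM signalling induces in immune cells, fell (-0.72 ± 0.10, adjusted p = 0.000299), and both NCK2 and SOCS3 carry the guide 7-mer. SOCS1 (0.76, adjusted p = 0.0331) and TWIST2 (0.55, adjusted p = 0.0421) rose, but the SOCS1 groups overlapped and those of TWIST2 met at 151 counts. Without the filter on low values or without the intensity trend, neither was called. The SOCS1 call was lost without siADAMTS12 replicate 3 or siCTL replicate 1 or 3 (adjusted p up to 0.133). That of TWIST2 was lost without siADAMTS12 replicate 1 or 3 or siCTL replicate 1 or 3 (adjusted p up to 0.143).

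Of 17 genes for factors known to drive AXL transcription, 3 rose and 2 fell (17.6% and 11.8%), beside 11.5% and 15.5% of all genes tested. The co-activator YAP1 (0.45 ± 0.06 SE, adjusted p = 0.000115) and its partner TEAD2 (0.69 ± 0.10, adjusted p = 0.000349) rose. Of the AP-1 subunits, FOS (-1.04 ± 0.19, adjusted p = 0.00195) and FOSL2 (-0.22, adjusted p = 0.0161) fell, and JUND rose (0.91 ± 0.24, adjusted p = 0.0156). The JUND call was lost without siADAMTS12 replicate 3 or siCTL replicate 1 or 3 (adjusted p up to 0.0661) and without the intensity trend (0.0993). That of FOSL2 was lost without siADAMTS12 replicate 1 or siCTL replicate 2, after either other scaling and without the intensity trend (up to 0.507). SP1 was at 0.01 (95% interval -0.16 to 0.18) and SP3 at -0.04 (-0.16 to 0.09). The part of these factors in the AXL values was not tested.

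**Figure D5:**
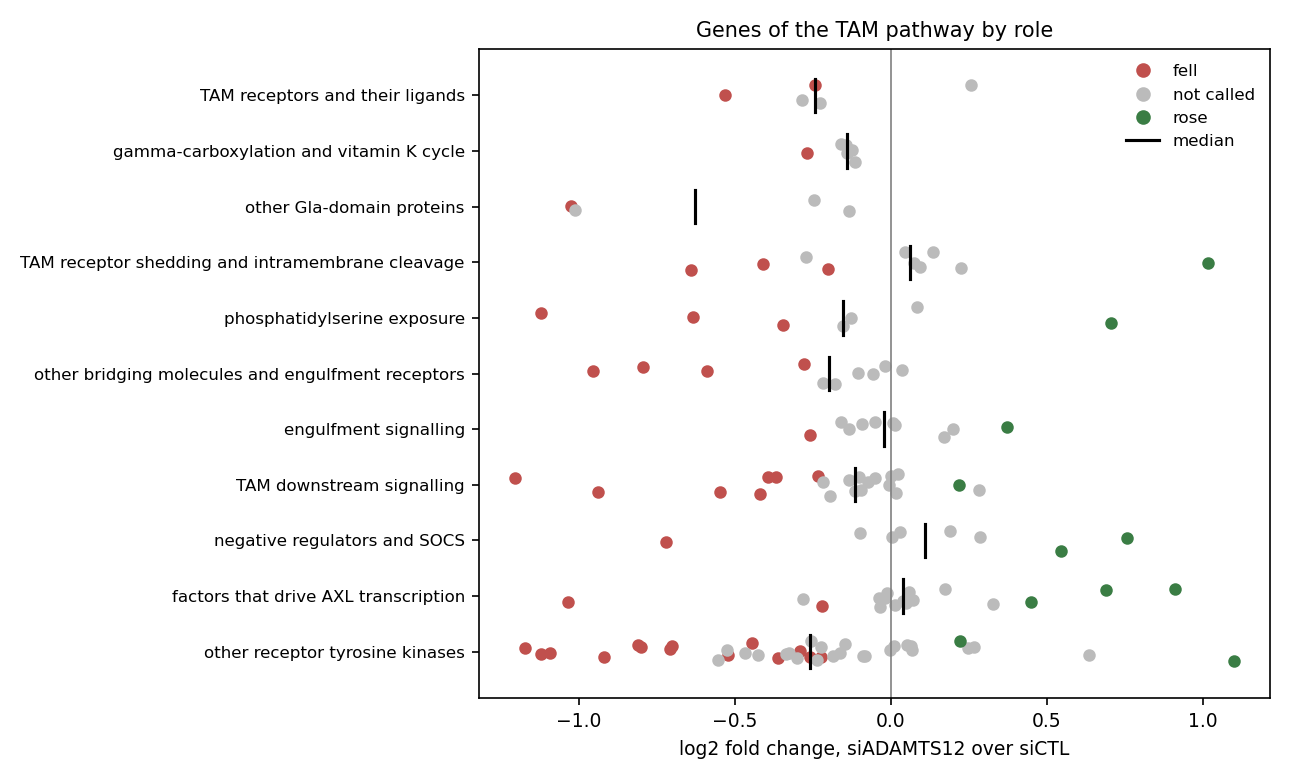
Log2 fold change of siADAMTS12 over siCTL (horizontal axis) for each gene with a mean of at least 10, by list (rows). Red points fell, green points rose and grey points were not called, and black bars are list medians. The kinase list has its median at -0.26 and the list of factors that drive AXL transcription at 0.04.

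The genes whose values ran most like those of each member were found by Pearson's correlation of log2 values over the 6 libraries, among 12251 others with a mean of at least 50. The libraries are shared, so a group difference alone gives high values, and these are descriptions only. The closest to AXL were the VEGF receptor gene KDR (r = 0.9997), BTN3A2 (0.9994) and the dipeptidase gene CNDP2 (0.9991). For TYRO3 they were ACAD10 (0.997), DDOST (0.993) and ADPRM (0.991), and for MERTK they were PUS7 (0.993), RGS7BP (0.991) and NFYA (0.985). SNX7 (0.997), DENND11 (0.995) and SRA1 (0.993) ran closest to GAS6. PROS1 was closest to RAD52 (0.996), NAIF1 (0.994) and the growth factor receptor gene IGF1R (0.991), which had 3272, 3513 and 2832 normalised counts with siADAMTS12 against 2656, 2933 and 2395 with siCTL, in the order of replicates.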

How the data were processed

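The deposited table holds whole-number scores, the normalised counts of 60669 genes in 6 libraries per the name of the deposited file. Per the submitters' processing notes, STAR, HTSeq and DESeq2 were used with GRCh38, without versions. Per the labels' protocols, libraries were stranded and poly(A)-selected from 500 ng of RNA. Which annotation was counted, and with what strand setting, is not given in the sources used here. Totals follow the scaling and are not sequencing depth. No count model was fitted, since the values are not raw counts.

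Genes with a mean of at least 10 (15637) were analysed as log2(value + 1), which understates changes of low genes. limma 3.58.1 in R 4.3.3 (lmFit, eBayes with intensity trend) used the 6 libraries and a single term, the siRNA. P-values are 2-sided, adjusted by Benjamini-Hochberg over all genes kept, and called under 0.05. The fit was tried on simulated counts that held no replicate effect, so that trial does not bear on the spread behind these p-values. Deviations from the group mean were correlated between libraries of the same number (0.37, 0.13 and 0.13, against -0.19 to 0.06 for different numbers), so the model was also fitted with a replicate block. This pairing comes from the data, not the labels.

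Exon lengths, transcripts and 3' UTRs are from GENCODE 29, matched by gene ID, and promoters from RefSeq. Up to 4 genes per list were named, by smallest adjusted p among those called, or the smallest p where none was; further list members (GGCX, VKORC1, MFGE8, GRB2, SP1, SP3, FOSL2, EGFR, FGFR1, EPHA2) were named for their role or level after their values were seen. Members and lists were chosen with earlier results of these data known. Python 3.11.15, pandas 2.3.3 and matplotlib 3.10.9 were used. Some results on single genes and sites are not reported here.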

Additional observations from a re-analysis of the deposited data

How the results depend on the processing

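AXL, ADAMTS12 and GAS6-DT kept their direction and their call under all 14 alternatives, and no member changed direction under any of them. The GAS6 call was lost after quantile normalization (-0.14), after scaling to equal totals (-0.12) and without the intensity trend (-0.24), and leaving out 1 library gave log2 fold changes between -0.28 and -0.20. TYRO3 passed with a minimum mean of 50 (-0.23, adjusted p = 0.0489), and PROS1 passed after scaling to equal totals (0.38). The replicate block left the values of TYRO3 (-0.23) and PROS1 (0.26) as they were and brought both past the threshold, while no other member's call changed with it. Leaving out 1 library gave -0.31 to -0.17 for TYRO3, -0.41 to -0.19 for MERTK and 0.17 to 0.35 for PROS1. Of all genes tested, 1798 rose and 2424 fell, against 3868 and 1546 after scaling to equal totals. Of the 132 listed pathway genes tested, 37 fell and 11 rose. After that scaling 26 fell and 26 rose, with the replicate block 45 and 18, and without the intensity trend 32 and 7. Among all 15637 genes tested, 3059 fell and 2423 rose with the replicate block, and 1942 and 1403 without the intensity trend. When 1 library was left out, between 30 and 38 of the pathway genes fell and between 8 and 12 rose. Of all genes tested, between 1873 and 2368 then fell and between 1230 and 1623 rose. The cause of these shifts was not tested. Leaving out 1 library gave shifts of the GAS6 to PROS1 log2 ratio between -0.61 and -0.37. Pseudocounts of 0.5 and 8 changed no member's call. Per-kb levels moved with the principal transcript length, for GAS6 to 1742 with siADAMTS12 and 2060 with siCTL. With 3 libraries a group, a single-gene permutation test cannot go below 0.1.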
